A study of Mus musculus with 10 samples.

Results

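The CA1 pyramidal cell genes described here are 7 genes, Wfs1, Fibcd1, Pou3f1, Mpped1, Man1a, Gpr161 and Lefty1, out of 20144 gene symbols that could be named on the array. They were chosen by name, as genes known from CA1, with earlier results of these data known. Every probe whose RefSeq accession belongs to them was taken. That gave 8 probes of 39429, with 2 probes for Man1a and 1 for each of the other 6 genes. RNA came from the hippocampus of 10 adult mice, 5 DLK wild-type (WT) and 5 DLK conditional knockout (cKO). DLK stands for dual leucine zipper kinase, and its gene is Map3k12. Every mouse, WT and cKO alike, had been on a tamoxifen diet for 3 weeks, and the labels name no recombinase, promoter, deleted exon, strain, sex or age beyond adult. Each mouse had its own 2-colour array, with the sample in Cy5 and a commercial mouse reference RNA pool in Cy3.

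CA1 is the field of the hippocampus whose pyramidal neurons receive the Schaffer collaterals of CA3 and send the main output of the hippocampus to the subiculum and cortex. Its neurons are also known as the ones most easily lost after ischaemia and some forms of excitotoxic injury. DLK acts upstream of the JNK kinases in stressed neurons, and the series, titled for its role in excitotoxic degeneration, compared gene expression of adult hippocampus with and without it. The members have unlike roles. Wfs1 encodes wolframin, a membrane protein of the endoplasmic reticulum, and Man1a a mannosidase of the Golgi that trims N-glycans. Fibcd1 encodes a membrane receptor with a fibrinogen-like domain, Gpr161 an orphan receptor of the primary cilium that dampens Hedgehog signalling, and Lefty1 a secreted antagonist of Nodal. Pou3f1 is a POU-domain transcription factor and Mpped1 a protein with a metallophosphoesterase domain. Several are also expressed outside CA1, so in whole hippocampus they are markers and not a pure CA1 readout.

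Values are log2 ratios of sample over reference, and differences are cKO minus WT on that scale. The arrays' median Cy5 signals ranged from 146 to 202, with median backgrounds of 29 to 31, and the number of arrays, 5 per group, limits the precision. Nothing in the labels says whether mice of a group shared a litter, so p-values measure only the spread between these samples. Genotype and slide were nearly separate: of the 3 slides the first carried cKO mice 1, 3, 4 and 5, the next WT mice 1, 2 and 4 with cKO mouse 2, and the last WT mice 3 and 5. Genotype within a slide can therefore be read on slide 2 alone. WT mouse 1 stood apart in striatal genes, with a list mean of 2.91 where the other 9 mice had 1.44 to 1.997, and without it 0 member probes passed, with differences of −0.059 for Fibcd1 and −0.037 for Gpr161, both above 0 with it. Map3k12, the deleted gene, had a mean of 1.93 ± 0.19 (SD, n = 5) in WT and fell to 37.5% of it in cKO mice, with no overlap (adjusted p = 0.000502 in limma). Its ratio was lowest in cKO mouse 2, at 0.107, where the reference signal was 314. The other 9 mice had reference signals of 102.5 to 128. Without cKO mouse 2 the Map3k12 difference was −1.31 (limma adjusted p = 0.000272).

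None of the 7 genes passed the test between genotypes, and the values below give the size of difference each leaves room for. All 8 probes were kept by the filter on dim spots, and 0 of 8 had an adjusted p under 0.05 in limma, where 0.0105% of all 28682 kept probes did (0.00697% higher and 0.00349% lower in cKO mice). At an unadjusted p under 0.05 there was 1 member probe, for Man1a and higher in cKO mice, against 3.82% of all kept probes in either direction and 2.78% higher. The groups overlapped for all 8 probes, while they did not overlap for 0.743% of kept probes. Of the 8 differences 7 were above 0 and 1, that of Wfs1, was below 0. Over all kept probes 54.6% of differences were above 0. The median difference was 0.11 over the member probes and 0.01 over all kept probes. When spots marked non-uniform stayed in the background fit, the member median was 0.33 and still 0 of 8 passed. In the main fit, which leaves out slide, the 95% intervals of all 8 member probes lay within a 1.5-fold change in either direction. So did those of 98.6% of kept probes. The bound does not hold under every alternative. The SE of Mpped1 was 0.72 with scaling between arrays, and that of Man1a A_52_P260105 was 0.30 with plain background subtraction. With marked spots kept in the background fit, Pou3f1 was at 0.40 (SE 0.17), Mpped1 at 0.39 (SE 0.22) and Man1a A_52_P171019 at 0.34 (SE 0.13). In the same setting Lefty1 was at 0.33 (SE 0.125) and Fibcd1 at 0.32 (SE 0.24). With slide as a fixed block Wfs1 was at 0.40 and Man1a A_52_P171019 at 0.33. In bulk tissue, a change in the number of CA1 neurons and a change in RNA per neuron cannot be told apart.

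**Figure D1:**
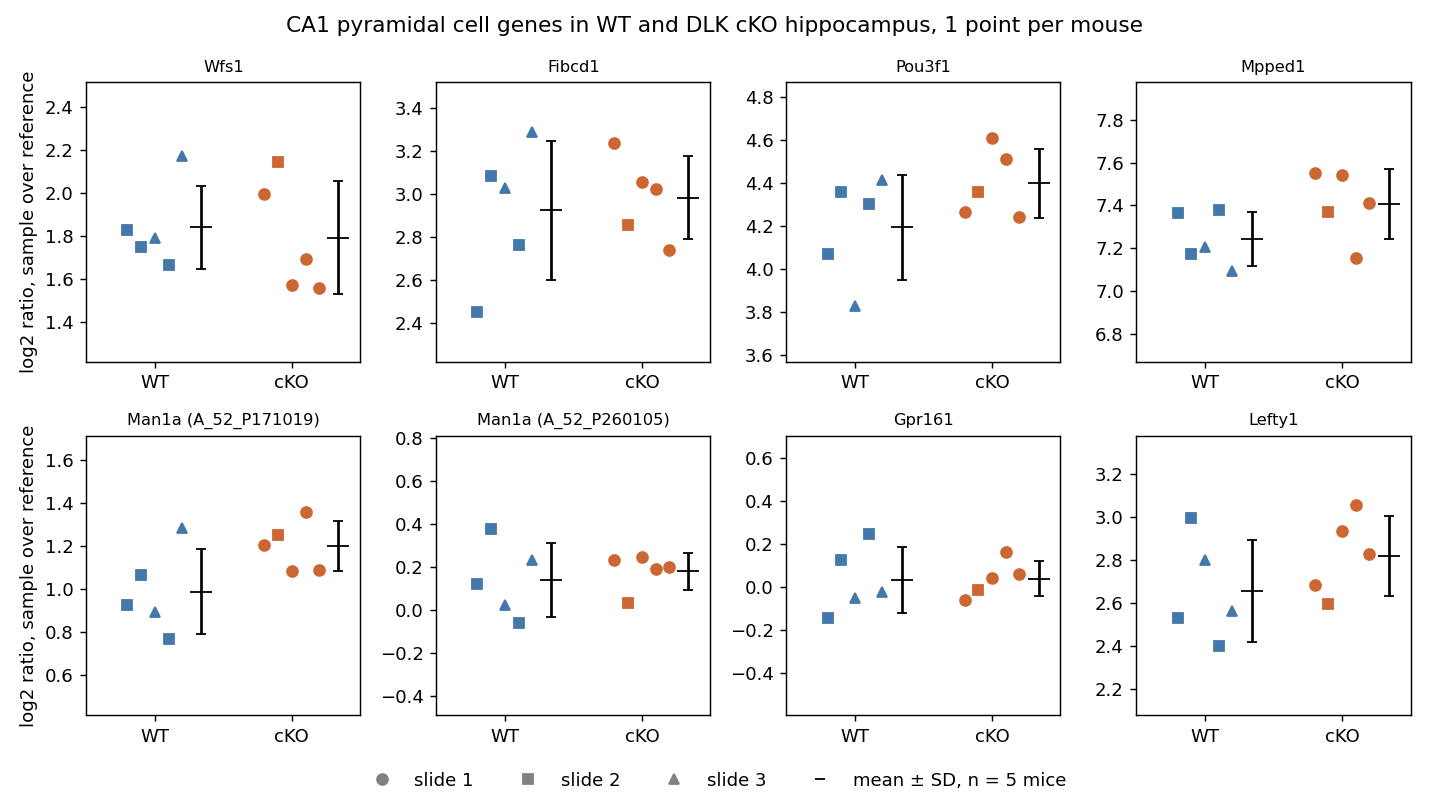
Log2 ratio of sample over reference (vertical axis, each panel spanning the same 1.3 log2 units) for the 8 member probes in 5 WT and 5 cKO mice; each point is a mouse, its shape gives the slide, and bars give the mean ± SD of each group. WT and cKO points overlap in every panel, and the mice of a group differ by as much as the groups do.

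Wfs1, a gene often used to outline CA1, gave a bright spot in every mouse. Its log2 ratio in WT mice 1 to 5 was 1.83, 1.75, 1.79, 1.67 and 2.17, and in cKO mice 1 to 5 it was 1.998, 2.15, 1.57, 1.70 and 1.56. The highest value of all was in a WT mouse and the lowest in a cKO mouse, and 2 cKO mice lay below every WT mouse. The WT mean was 1.84 ± 0.19 (SD, n = 5) and the cKO mean 1.79 ± 0.26 (SD, n = 5). The difference was −0.05 (SE 0.13, limma adjusted p = 0.9999, exact permutation p = 0.770), which puts cKO mice at 96.8% of WT (95% interval 80.1% to 117%). Cy5 signals of the Wfs1 spot were between 7748 and 17541.5, far above the background of 25 to 37 at the member spots. Within slide 2, Wfs1 had the opposite sign: cKO mouse 2 was at 2.15 against a mean of 1.75 in the 3 WT mice. That difference, 0.40, is also the value with slide as a fixed block (limma adjusted p = 0.917), while with slide as a random block Wfs1 was at −0.10 (limma adjusted p = 0.889). It rests on 1 cKO mouse, and the 4 cKO mice of slide 1 had a mean of 1.71.

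The receptor and secreted members were next. Fibcd1 had the widest spread of the members, 0.84 between the highest and the lowest mouse. Its log2 ratios in WT mice 1 to 5 were 2.45, 3.08, 3.03, 2.77 and 3.29, and in cKO mice 1 to 5 they were 3.24, 2.86, 3.06, 3.02 and 2.74. The cKO values all fell inside the range of the WT values. Group means were 2.92 ± 0.32 (SD, n = 5) and 2.98 ± 0.19 (SD, n = 5), a difference of 0.06 (SE 0.14, limma adjusted p = 0.9999). Its 95% interval ran from −0.25 to 0.37. In the reference channel the Fibcd1 spot was dim, at 50 to 89, and well above background on 7 of 10 arrays, so its ratio is pulled towards 0. The difference was −0.01 in Cy5 alone, 0.29 with the scanner software's own ratios and 0.09 within slide 2.

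Lefty1 differed by 0.16 (SE 0.12, limma adjusted p = 0.9999, exact permutation p = 0.254). In WT mice 1 to 5 its log2 ratios were 2.53, 3.00, 2.80, 2.40 and 2.56, and in cKO mice 1 to 5 they were 2.68, 2.60, 2.94, 3.06 and 2.83. All 5 cKO mice lay above the WT median, but only cKO mouse 4 lay above all WT mice. Within slide 2 the difference was −0.05. Gpr161 was dim in both channels, with Cy5 signals of 61 to 124.5. WT mice had a mean of 0.03 ± 0.16 (SD, n = 5) and cKO mice one of 0.04 ± 0.08 (SD, n = 5). The difference of 0.01 (SE 0.08) had a 95% interval of 89.5% to 113% of WT, on a scale that the offset of 50 compresses. Gpr161 values ran from −0.14 to 0.25 in WT and from −0.06 to 0.16 in cKO mice, so the cKO range lay inside the WT range. In Cy5 alone the Gpr161 difference was 0.13, and within slide 2 it was −0.09.

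The transcription factor gene Pou3f1 had one of the higher differences, 0.20 (SE 0.11, limma adjusted p = 0.9999, exact permutation p = 0.159). Its log2 ratios were 4.07, 4.36, 3.83, 4.30 and 4.41 in WT mice 1 to 5 and 4.27, 4.36, 4.61, 4.51 and 4.24 in cKO mice 1 to 5. The low group mean in WT owed most to WT mouse 3, and 2 cKO mice, 3 and 4, lay above all WT mice. Without WT mouse 3 the difference was 0.11, and within slide 2 it was 0.12. The 95% interval ran from 97.2% to 136% of the WT level.

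Mpped1 was bright in the sample and dim in the reference. Its Cy5 signal was 37327 to 54006.5, against 178 to 242.5 for the reference RNA in the same spots. Log2 ratios were 7.36, 7.18, 7.21, 7.38 and 7.09 in WT mice 1 to 5 and 7.55, 7.37, 7.54, 7.15 and 7.41 in cKO mice 1 to 5. Cy5 exceeded Cy3 in every mouse by over 7 log2 units, and 3 cKO mice lay above all WT mice. The difference was 0.16 (SE 0.08, limma adjusted p = 0.9999, exact permutation p = 0.135), with a 95% interval of −0.02 to 0.35. Within slide 2 it was 0.07, with cKO mouse 2 at 7.37 among WT mice of 7.18 to 7.38. Mpped2, its close relative, differed by 0.08 (SE 0.07).

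Man1a was read by 2 probes for the same transcript, and they were unlike in brightness. The brighter, A_52_P171019, gave log2 ratios of 0.92, 1.06, 0.89, 0.77 and 1.28 in WT mice 1 to 5 and 1.21, 1.25, 1.08, 1.36 and 1.09 in cKO mice 1 to 5. All 5 cKO mice lay above the WT median and 1 lay above all WT mice, since WT mouse 5 was nearly as high as the highest cKO mouse. The difference was 0.21 (SE 0.09), placing cKO mice at 116% of WT (95% interval 101% to 133%). Its unadjusted p was 0.0423, its limma adjusted p 0.9999 and its exact permutation p 0.0952. The dimmer probe, A_52_P260105, had Cy5 signals of 49 to 70.5 over local backgrounds of 26 to 37, and its reference signal was well above background on 0 of 10 arrays. It differed by 0.04 (SE 0.08), with a 95% interval of 91.1% to 116%. Its log2 ratios ran from −0.06 to 0.38 in WT and from 0.03 to 0.25 in cKO mice, so the cKO values lay inside the WT range. Within slide 2 the brighter probe was at 0.33 and the dimmer at −0.11. With 54 to 70 units of Cy5 in WT mice, the dimmer probe has little room to show a difference.

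**Figure D2:**
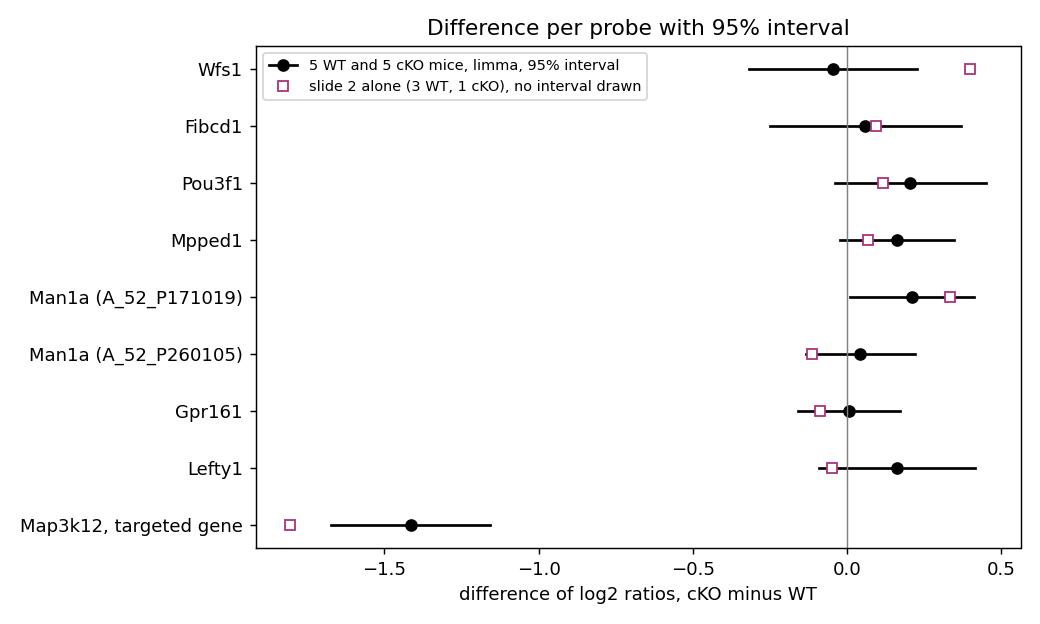
Difference of log2 ratios, cKO minus WT (horizontal axis), for each member probe and for the targeted gene; filled points and lines give the value and 95% interval from limma over 5 WT and 5 cKO mice, open squares the value within slide 2 (3 WT, 1 cKO). Map3k12 lies at −1.42, while the member probes lie between −0.05 and 0.21, and only the interval of Man1a A_52_P171019 leaves out 0 before adjustment.

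**Figure D3:**
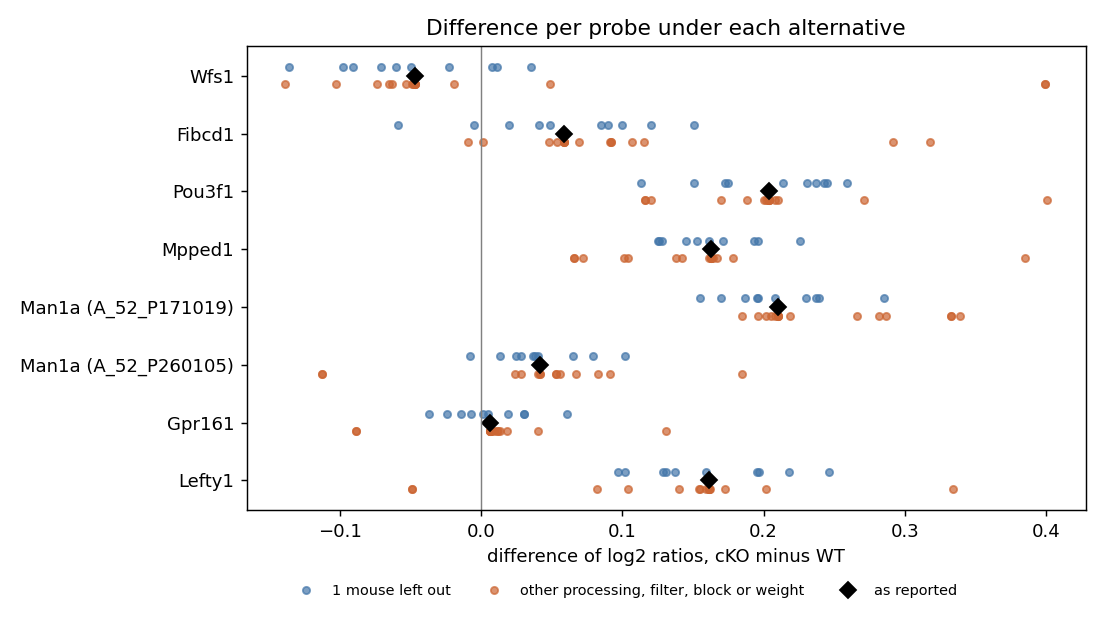
Difference of log2 ratios, cKO minus WT (horizontal axis), for each member probe as reported (black diamonds), with 1 mouse left out (blue) and under the other alternatives of processing, filter, block or weight (orange). Pou3f1, Mpped1 and Man1a A_52_P171019 stay above 0 throughout, at 0.11 to 0.40, 0.07 to 0.39 and 0.16 to 0.34, while Wfs1 spans 0 and reaches 0.40 within slide 2.

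The 7 genes were present in all samples. In whole hippocampus this cannot check the CA1 label, since genes of other lists, such as Tbr1 and Grik4, also exceeded the reference in WT. Of the 8 probes, 7 were well above background in Cy5 on all 10 arrays and the dimmer Man1a probe on 9. WT hippocampus exceeded the reference at Mpped1, Pou3f1, Fibcd1, Lefty1 and Wfs1, by 7.24, 4.19, 2.92, 2.66 and 1.84 log2 units, and at the brighter Man1a probe by 0.99. For Gpr161 and the dimmer Man1a probe the ratio was 0.03 and 0.14. The size of these ratios depends on the background correction where the reference spot is dim: with plain subtraction and with the scanner software's ratios, Fibcd1 was at 4.40 and 4.44 and the brighter Man1a probe at 1.82 and 1.95. All levels include a dye effect, since no dyes were swapped, and levels of different probes cannot be set against each other. Among 6 further CA1-associated genes, 0 passed the test, 4 were higher and 2 lower, with a median of 0.05. Etv1, a transcription factor gene, was highest at 0.17 (SE 0.13), and Dcn, which encodes the matrix proteoglycan decorin and is also a gene of fibroblasts, lowest at −0.48 (SE 0.28).

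The members varied between mice of the same genotype more than most probes did. Their residual SD ranged from 0.12 for Gpr161 to 0.27 for Fibcd1, with a median of 0.18, against 0.12 over all kept probes. Fibcd1 lay at the 95.7th percentile of all kept probes, Wfs1 at the 92nd and Lefty1 at the 89.1st. No single mouse was high or low for all of them. WT mouse 5 was the highest WT mouse for 4 of 8 probes, Wfs1, Fibcd1, Pou3f1 and the brighter Man1a probe, and the lowest for Mpped1. WT mouse 4 was the lowest WT mouse for 4 probes and the highest for Mpped1 and Gpr161. Taking each probe's distance from its WT mean, the median over the 8 probes ran from −0.17 in WT mouse 4 to 0.15 in WT mouse 5, and from 0.04 to 0.13 in the 5 cKO mice. All 5 cKO medians lay between those of the lowest and the highest WT mouse. By the mean over the 8 probes in place of the median, cKO mice 1, 3 and 4, at 0.138, 0.134 and 0.141, lay above all WT mice, the highest of which was at 0.126.

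**Figure D4:**
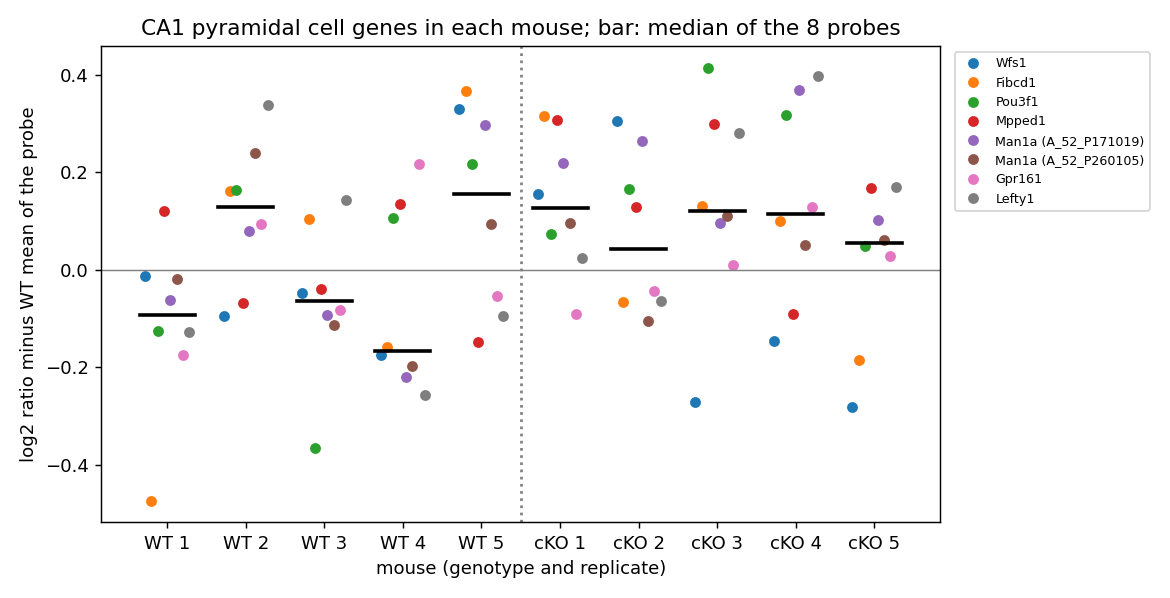
Log2 ratio minus the WT mean of the probe (vertical axis) for the 8 member probes in each mouse (horizontal axis); points are probes and black bars the median of the 8. The bars of WT mice range from −0.17 to 0.15 and enclose those of the cKO mice, which range from 0.04 to 0.13, and the order of the colours changes from mouse to mouse. By means, which are not drawn, 3 of 5 cKO mice lie above all WT mice.

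Mice high for 1 of the genes were not regularly high for the others. After centring within genotype, 11 of the 21 pairs of genes had a positive and 10 a negative correlation over the 10 mice, and 0 of 21 passed after Benjamini-Hochberg adjustment. The closest relation was a negative one, between Mpped1 and Man1a (Pearson r = −0.75, exact permutation within genotype p = 0.00778, adjusted p = 0.163; Spearman rho = −0.72, exact permutation p = 0.0225, adjusted p = 0.462). Without the 2 mice farthest from the median of Mpped1, r was −0.83. Wfs1 and Man1a had r = 0.64 (exact permutation p = 0.0476, adjusted p = 0.4995) and rho = 0.61 (exact permutation p = 0.0660, adjusted p = 0.462), and r was 0.36 without the 2 mice farthest from the median of Wfs1. Values of a mouse share an array and its normalisation, so such correlations hold array effects as well.

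For the 3 members with the widest range over the mice, the genes with the most similar profile were found by the mean absolute difference of centred log2 ratios over the 10 mice, among 16166 other named genes. Nearest to Fibcd1 were Kit, the receptor for stem cell factor, at 0.06, Cracd, a regulator of actin capping, at 0.08, and Crtac1, a secreted protein of axons and cartilage, at 0.08, where the median over all candidates was 0.22. Kit and Crtac1 lay on the same side of their means as Fibcd1 in 10 of 10 mice, and Cracd in 9. The differences of Kit, Cracd and Crtac1 were 0.08, −0.02 and 0.15. The genes were picked for closeness over these same mice, so such agreement follows largely from the choice. Among the genes nearest to Pou3f1 were Magi2, a synaptic scaffold gene, at 0.07 and Cd27, a receptor gene of lymphocytes, at 0.09, against a median of 0.19. Magi2 lay on the same side as Pou3f1 in 7 mice and Cd27 in 9. Their ranges, 0.52 and 0.41, were narrower than the 0.78 of Pou3f1. Nearest to Lefty1 were Lats2, a Hippo pathway kinase gene, Arpc5, a subunit of the Arp2/3 complex, and Ppp4r4, a phosphatase subunit gene, at 0.08, 0.08 and 0.09, against a median of 0.20.

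Genes that work with or are related to single members were also read, and 0 of them passed the test. Of 9 genes of the endoplasmic reticulum stress response, the setting in which wolframin acts, 8 were lower and 1 higher in cKO mice, with a median of −0.05 that turned to 0.17 with slide as a fixed block. The chaperone gene Hspa5 was lowest at −0.23 (SE 0.24) and the stress kinase gene Eif2ak3 highest at 0.05 (SE 0.10). The other N-glycan mannosidases had a median of 0.01 over 5 genes, from −0.08 for Man2a2 to 0.09 for Man1c1, and their median was 0.35 with slide as a fixed block, 0.13 with array weights and −0.08 with median centring. Of 7 Hedgehog genes 6 were measured, 3 higher and 3 lower, from −0.21 (SE 0.09) for the inhibitor Sufu to 0.06 for the transcription factor gene Gli2. Of 9 genes of Nodal signalling 5 were higher and 4 lower, from −0.25 (SE 0.09) for the receptor gene Acvr2a to 0.11 (SE 0.12) for Lefty2. Unadjusted p was 0.0332 for Sufu and 0.0129 for Acvr2a, both with a limma adjusted p of 0.9999. Among the POU class 3 genes Pou3f2 was at −0.11 and Pou3f3 at 0.14, and Pou3f4 was not kept. Of 7 fibrinogen-domain genes 4 were measured, with a median of −0.06, from −0.19 for Angptl4 to 0.14 for Tnr.

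The other principal cells of the hippocampus also held no gene that passed. Of 10 measured CA2 and CA3 genes 6 were higher and 4 lower, with a median of 0.03, from −0.06 for Map3k15 to 0.19 for Amigo2. Of 9 dentate granule cell genes 3 were higher and 6 lower, with a median of −0.05, from −0.21 for Dsp to 0.16 for Trpc6. With slide as a fixed block the dentate median was −0.22 and that of CA2 and CA3 0.017. With 1 probe per gene, as in these lists, the CA1 median was 0.161, and it was 0.092 with slide as a fixed block. The medians of CA1, CA2 and CA3, and dentate lists were not tested against each other. All 5 genes shared by excitatory forebrain neurons had higher values in cKO mice, with a median of 0.12, from 0.07 for Slc17a7 to 0.23 for Camk2a. The mean of those 5 genes was 4.075 to 4.234 in WT and 4.243 to 4.402 in cKO mice. All 5 cKO mice thus lay above every WT mouse, with a gap between the groups smaller than the spread within each. The median of this list was 0.026 with slide as a fixed block, 0.031 with median centring and 0.036 in Cy5 alone.

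Markers of other cells were read beside the members. All 10 choroid plexus genes were kept and had higher values in cKO mice, from 0.24 for Slc4a5 to 1.599 for Kcnj13, 8 of them at an unadjusted p under 0.05. Their mean was 0.42 to 1.20 in WT and 1.23 to 2.58 in cKO mice. Of 10 oligodendrocyte genes 8 were higher, 6 of the 10 at an unadjusted p under 0.05, from −0.09 for Mbp to 0.56 for Cldn11, with a mean of 3.22 to 3.65 in WT and 3.59 to 3.83 in cKO mice. Of 8 neocortex and subiculum genes 6 were higher, from −0.03 for Fezf2 to 0.27 for Nxph3. All 7 interneuron genes were higher, from 0.04 for Lhx6 to 0.27 for Gad2, as were all 7 microglial genes, from 0.04 for Tmem119 to 0.16 for C1qa. Astrocyte genes ran from −0.05 for Aqp4 to 0.23 for Gfap, with 5 of 7 higher. With slide as a fixed block, which rests on cKO mouse 2, the microglial median turned from 0.07 to −0.11 and the astrocyte median from 0.06 to −0.29. With median centring they were −0.009 and −0.025. Under the fixed block the neocortex and subiculum median moved from 0.09 to 0.41, while the interneuron median stayed above 0, at 0.135. The interneuron median, 0.121 in the main fit, was 0.032 with median centring and 0.03 in Cy5 alone. Thalamus genes ran from 0.01 for Tcf7l2 to 0.40 for Tnnt1, with 5 of 5 higher. Striatum genes ran from −0.27 for Adora2a to 0.15 for Ppp1r1b, with 2 of 6 higher and a median of −0.22, which was 0.15 without WT mouse 1. In limma 0 of these genes passed after adjustment over all probes, and their part in the values of the CA1 genes was not tested.

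**Figure D5:**
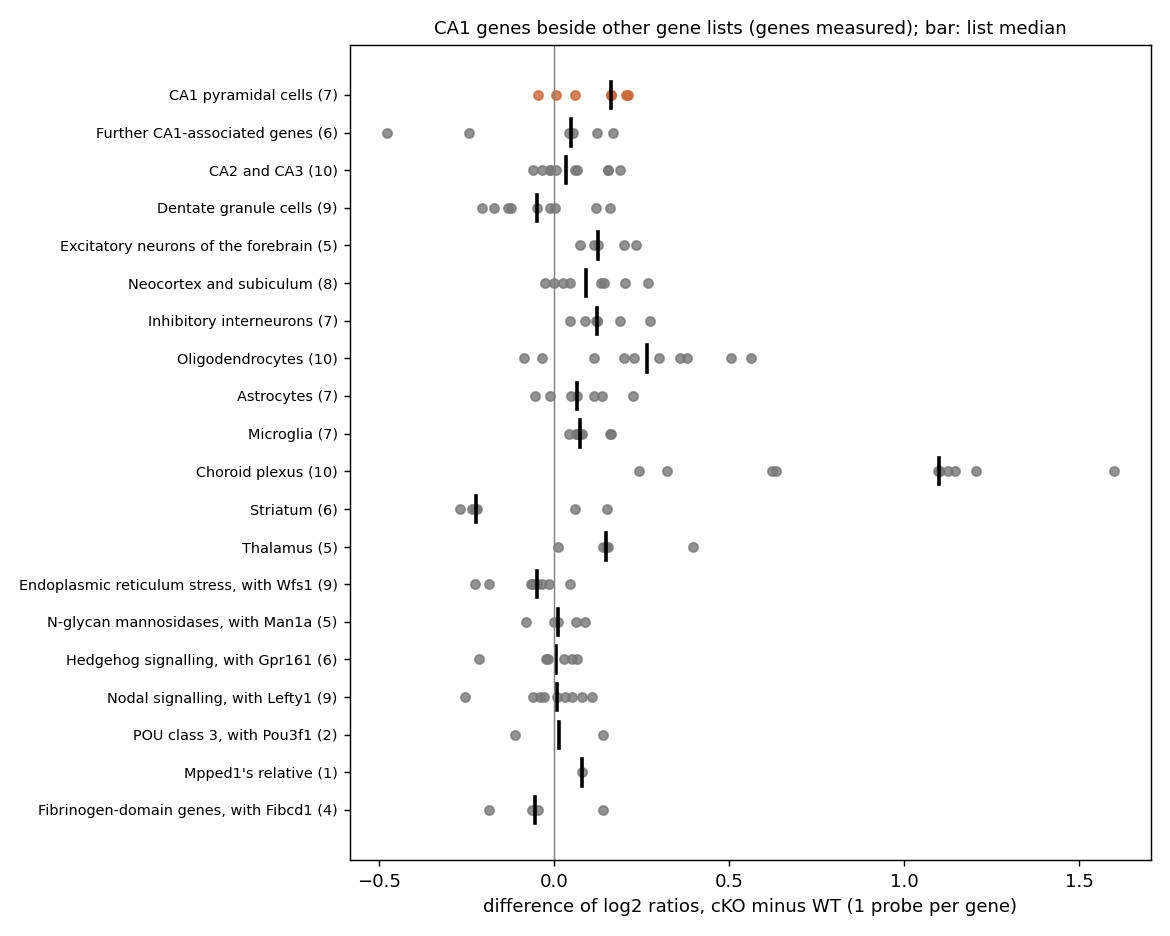
Difference of log2 ratios, cKO minus WT (horizontal axis), for each measured gene of the CA1 list (orange) and of the other lists (grey), with 1 probe per gene; black bars are list medians and the number of genes measured stands in brackets. CA1 genes lie between −0.05 and 0.21, among the values of most other neuronal lists, while choroid plexus genes reach 1.599. The CA1 median is 0.161, that of thalamus genes 0.148 and that of excitatory forebrain genes 0.124.

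Promoter windows of the members were read for 2 motifs and base content. RefSeq promoters of GRCm38.p6, from 250 bases before to 50 bases after a start site, matched 5 of the 7 genes with 7 start sites. None of the 7 windows held the AP-1 motif TGANTCA or the cAMP response element TGACGTCA on either strand, motifs bound by factors that JNK can act on. Over all 32851 windows of that length, 7.81% held the first and 1.79% the second motif. Guanine and cytosine made up 44% to 89.3% of the member windows, against a median of 52.7%. CpG dinucleotides numbered 30 in the Wfs1 window, 46 in that of Fibcd1, 38 in that of Man1a, 59 and 3 in those of Mpped1, and 1 and 5 in those of Gpr161, against a median of 7. The absence of these letters from the windows says nothing of binding elsewhere.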

How the data were processed

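Spot intensity values in Cy5 and Cy3 were deposited by the authors as median pixel signals, extracted with Agilent Feature Extraction 11.0.1.1 per the file headers and not normalised. Per the file headers, the software also wrote log10 ratios of Cy5 over Cy3. A value table of log2 ratios was deposited too. Its columns correlated with the ratios computed here at 0.999975 or more and had medians of 0.0120 to 0.0204, so its scale and direction are log2 of sample over reference. The submitters' processing notes list limma.

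Spots marked non-uniform were removed before the background fit (kept in it as an alternative), background was corrected by normexp with an offset of 50, and ratios were normalised by loess within arrays (limma 3.58.1, R 4.3.3). Population outliers were removed before averaging. Probes well above background in Cy5 on at least 5 of 10 arrays were kept. Accessions were matched to RefSeq gene names (26581 probes, 67.4%). Probe sequences were not used here.

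Genotypes were compared with lmFit and eBayes over 28682 probes, two-sided, with Benjamini-Hochberg adjustment. Exact permutation tests were two-sided, and 5 against 5 mice cannot give less than 0.00794. The members and gene lists were chosen with earlier results of these data known. All member probes are named. From other lists the genes with the highest and lowest difference are named, and for the 3 members with the widest range the 3 genes of most similar profile, of which 1 is not reported here. Replicate numbers did not pair the mice (correlations of −0.56 to 0.16).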

Additional observations from a re-analysis of the deposited data

Results flagged for a closer look

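At the dimmer Man1a probe, A_52_P260105, cKO mouse 2 had a log2 ratio of 0.033, far below the other 4 cKO mice, the nearest of which was at 0.19. The gap took 0.719 of the whole cKO range, where 0.71 is the limit for 5 samples. Cy5 signal of the spot was 69 in that mouse and its Cy3 signal was 59, the highest of the 10 arrays. Over the 18 groups examined (8 member probes and Map3k12, each in WT and cKO mice) this was the only such value, and chance gives about 1 in 20.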

How the results depend on the processing

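Under each of 26 alternatives 0 member probes passed, and no member probe's adjusted p fell below 0.426. The count of 0 also held with replicate number as a block, with which the median difference was again 0.11. At an unadjusted limma p under 0.05 there was 1 member probe of 8 in the main fit. There were 3 when marked spots stayed in the background fit and 3 with slide as a random block. There were 0 with median centring and 0 with scaling between arrays. Of 206 recomputed member differences 186 kept their sign. Pou3f1, Mpped1 and the brighter Man1a probe kept it throughout, at 0.11 to 0.40, 0.07 to 0.39 and 0.16 to 0.34. The median over member probes was 0.08 to 0.14 with 1 mouse left out and 0.33 when marked spots stayed in the background fit; the cause was not tested. It was 0.064 with median centring, which moved the median of all kept probes to −0.056. With slide as a fixed block, and likewise within slide 2, 4 signs turned: Wfs1 to 0.40, the dimmer Man1a probe to −0.11, Gpr161 to −0.089 and Lefty1 to −0.049. Those values rest on cKO mouse 2. Wfs1 was at 0.049 with array weights and Fibcd1 at −0.009 in Cy5 alone. With 1 mouse left out, Wfs1 ran from −0.14 (without cKO mouse 2) to 0.035 (without WT mouse 5) and turned above 0 also without cKO mouse 3 or 5. Fibcd1 ran from −0.059 (without WT mouse 1) to 0.15 and was below 0 also without cKO mouse 1. The dimmer Man1a probe ran from −0.008 (without WT mouse 4) to 0.10. Gpr161 ran from −0.037 to 0.061 and was below 0 without WT mouse 1, 3 or 5 or cKO mouse 4. Among the alternatives with more than 1 mouse in each group, Map3k12 missed the threshold when marked spots stayed (−1.26) and in Cy5 alone (−1.18). Within slide 2 its difference was −1.80, a value that rests on cKO mouse 2, whose reference signal at that spot was 314. Signals near background limit Gpr161 and the dimmer Man1a probe.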
